A study of Mus musculus with 16 samples.

Results

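Levels of 10 miRs that are known from tissues other than blood were examined in mouse hematopoietic stem and progenitor cells (HSPCs). They were the muscle miRs mmu-miR-1, mmu-miR-133a, mmu-miR-133b and mmu-miR-206, the liver miR mmu-miR-122, the brain miR mmu-miR-124, the epithelial miRs mmu-miR-200b, mmu-miR-200c and mmu-miR-141, and mmu-miR-375 of pancreatic islets. A miR was a member when its name stood as the systematic name of a non-control probe on the array, and all 10 were present among the 577 miRs measured (567 of the mouse and 10 viral). Each was read by 2 probes of 10 spots, that is 20 of 1712 probes. The rule went by name and tissue and has no threshold on a measured level.

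RNA of sorted bone marrow populations was hybridised to 16 one-colour arrays. HSC subsets were represented by 1 array of long-term HSCs (LT-HSC), 3 of short-term HSCs (ST-HSC) and 3 of multipotent progenitors (MPP). Myeloid progenitors had 3 arrays for each of 3 populations, the common progenitor (CMP), the one restricted to granulocytes and monocytes (GMP) and the one restricted to megakaryocytes and erythroid cells (MEP). Per the study's methods all cells came from female C57Bl/6 mice a few weeks old, pooled within a replicate, whose leg bones, hips and spine were crushed together. Lineage-depleted, c-kit-enriched cells were then sorted, the HSC subsets in one sort and the myeloid progenitors in another, so sort and side of this comparison cannot be told apart. P-values measure the spread between these pooled replicates. In bulk RNA, fewer cells that hold a miR and less of it per cell cannot be told apart.

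MiRs are short RNAs that pair with target mRNAs mainly through their seed, the bases near the 5′ end, and lower the target's translation or stability. MiR-1 and miR-206 share a seed and are made with the miR-133 pair from joint loci in heart and skeletal muscle, where they act in myogenic differentiation. MiR-122 is the dominant miR of hepatocytes and miR-124 that of neurons. The miR-200 family keeps epithelial cells epithelial by repressing the transcription factors Zeb1 and Zeb2, and miR-375 acts in insulin secretion. None of them belongs to the miRs by which blood lineages are usually recognised. The study itself, however, lists miR-133a and miR-141 as general myeloid miRs. It reports them as higher in CMP, GMP and MEP than in the HSC subsets and above its predicted functional threshold. That list rests on normalised array values and a threshold derived from copy number per cell, not on the detection calls defined below. The question here was whether each of the 10 was silent in HSPCs and which departed from silence.

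Mature sequences were in the RefSeq table (GRCm38.p6) for 5 of the 10 members, and they are shown with 2 relatives of miR-200b because the departure measured in MPP was in this family. Bases in capitals are the seed, bases 2 to 8. The muscle pair lay on the plus strand of chromosome 1, with 3686 bases between the hairpins of miR-206 at chr1:20679055-20679076 and miR-133b at chr1:20682834-20682855.
mmu-miR-206-3p: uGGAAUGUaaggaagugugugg
mmu-miR-133b-3p: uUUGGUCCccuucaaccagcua
mmu-miR-200b-3p: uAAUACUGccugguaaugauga
mmu-miR-200c-3p: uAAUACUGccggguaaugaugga
mmu-miR-429-3p: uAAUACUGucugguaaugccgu
mmu-miR-141-3p: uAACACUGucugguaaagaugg
mmu-miR-200a-3p: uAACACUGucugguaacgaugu

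The family fell into 2 seeds, AAUACUG in miR-200b, miR-200c and miR-429 and AACACUG in miR-141 and miR-200a, which differed at 1 base. MiR-200b and miR-200c differed at 2 of 22 positions, as did miR-141 and miR-200a. Probes of miR-124 were placed by the array files at chr14:65209551-65209565 and those of miR-375 at chr1:74947235-74947250 (mm9). By genome position the miR-200 family grouped another way than by seed. MiR-200b (chr4:156055685-156055706), miR-200a (chr4:156054911-156054932) and miR-429 (chr4:156053916-156053937) shared the minus strand of chromosome 4, with 695 bases between the hairpins of the first pair. MiR-200c (chr6:124718324-124718346) and miR-141 (chr6:124717917-124717938) lay on the minus strand of chromosome 6 with 336 bases between them.

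Signals are given in the scanner's units after subtraction of background, without scaling between arrays unless stated, and the brighter probe of a miR stands for it. Detection of a miR required that, for one of its probes, the scanner software had called a share of 0.5 or more of the spots well above background. The 672 negative control spots of each array, whose 95th percentile is called the negative control limit here, gave the level of empty spots. This limit differed by slide. It was 9.94 to 44.3 units on slide 1, which carried CMP, GMP and MEP 1 and 2 and, per the file headers, was read on another scanner model with an earlier version of the Feature Extraction software than the rest, 1.53 to 2.21 units on slide 2 (replicate 3 of these with LT-HSC 1 and ST-HSC 1) and 1.99 to 3.35 units on slide 3 (MPP 1 to 3 with ST-HSC 2 and 3). No spot was saturated. The sorted populations carried their blood miRs: 8 miRs of blood cells, miR-142-3p and miR-223 among them, were detected in 124 of 128 pairs of miR and array.

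The members were nearly silent. Of the 160 pairs of member and array, 9 were detected (5.62%), against 2940 of 9232 pairs over all miRs (31.8%). By the negative control limit, 27 of the 160 pairs were above it (16.9%) against 41.5% over all miRs, and 48 of the 160 signals were below 0. Every detected pair was above the limit, and 18 pairs were above the limit without being detected. Slide 1 gave 5 of the 9 detected pairs, slide 2 gave 1 and slide 3 gave 3. The 9 pairs fell into 3 blocks, as the map of members and arrays shows. The 4 muscle miRs were detected on MEP 1 and on no other array, miR-124 on CMP 1 and CMP 3, and miR-200b on all 3 MPP arrays. MiR-122, miR-200c, miR-141 and miR-375 were detected on no array, which held for 300 of all 577 miRs.

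**Figure D1:**
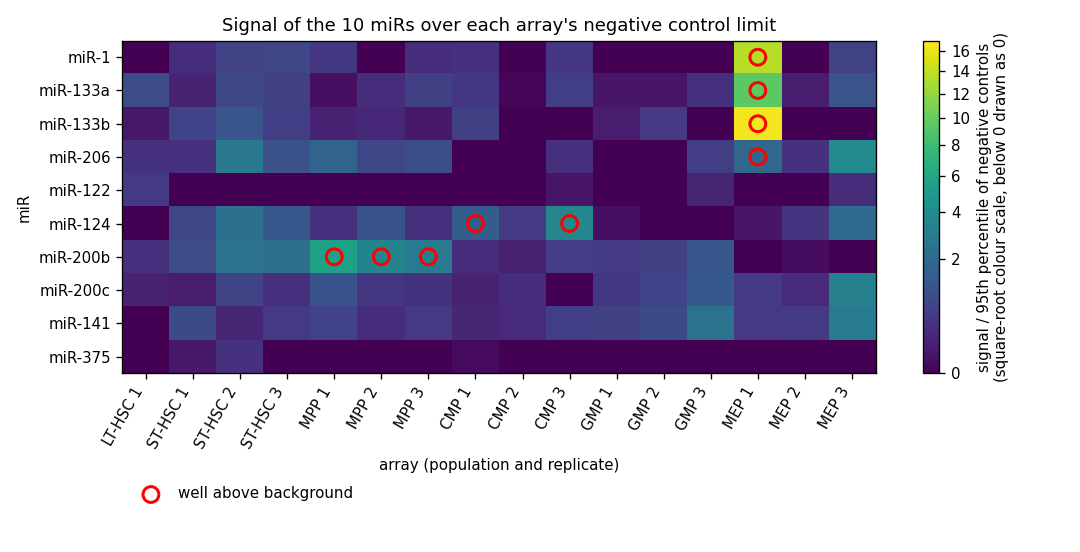
Signal of each of the 10 miRs (rows) on each of the 16 arrays (columns), divided by that array's 95th percentile of the negative controls, on a square-root colour scale on which values below 0 are drawn as 0. Red circles mark the 9 detected pairs, which sit on MEP 1 (4 muscle miRs), CMP 1 and CMP 3 (miR-124) and MPP 1 to 3 (miR-200b).

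MiR-122 and miR-375 were the most silent. MiR-122, which in liver acts in lipid metabolism, ran from -2.85 units on CMP 1 to 1.08 on LT-HSC 1, with a median of -0.68 over the 16 arrays and 12 of the 16 values below 0. Its other probe reached 1.54 units. MiR-375 ran from -2.74 units on MEP 1 to 0.80 on ST-HSC 2, with a median of -0.75 and 13 of 16 values below 0. Neither crossed the negative control limit on any array, so no population could be told from another for these miRs.

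The muscle miRs were bright on MEP 1 and not detected on the other 15 arrays. MiR-133b, which with miR-133a acts in muscle growth, read 202 units there. In the other MEP replicates it read -0.016 on MEP 2 and -0.20 on MEP 3. Its next highest signal was 18.6 on CMP 1, below that array's limit of 30.6 but above 12.2, the limit without flagged control spots. MiR-1, which promotes muscle differentiation, read 166 units on MEP 1, -2.34 on MEP 2, 1.01 on MEP 3 and at most 10.1 (CMP 1) elsewhere. MiR-133a read 117 units on MEP 1, 1.03 on MEP 2, 1.71 on MEP 3 and at most 13.5 (CMP 1) elsewhere. MEP 1 therefore stood apart from MEP 2 and MEP 3 for these miRs, although MEP 1 and MEP 2 lay on the same slide. Over the 1712 probes MEP 1 and MEP 2 correlated at Pearson r = 0.996 on unlogged signals, in which the brightest probes weigh most.

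MiR-206, the skeletal muscle miR of the miR-1 seed, was dimmer and less sharply confined. It read 22.8 units on MEP 1, with 5 of 10 spots well above background, just enough for detection, 3.40 on MEP 2 and 5.95 on MEP 3. Elsewhere it reached 6.27 on ST-HSC 2, 3.55 on MPP 1 and 3.16 on ST-HSC 3 units, each above its array's limit but not detected. On MEP 3 the value was above the limit of 1.53 with 2 of 10 spots well above background. In units MEP 2 and MEP 3 overlapped with the HSC subsets. As a share of the summed signal MEP 3 (0.0111%) was above every array outside MEP, of which ST-HSC 2 was highest at 0.00692%, and MEP 2 (0.00336%) was not. The normalised log2 levels were 4.05, 1.99 and 3.00 in MEP and 2.35 on ST-HSC 2.

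On MEP 1 miR-133b made up 0.146% of the summed signal, miR-1 0.120%, miR-133a 0.0847% and miR-206 0.0165%. They were 4 of 7 miRs detected on MEP 1 and on no other array. The other 3, named after their values were seen, were miR-302c (83.6 units), miR-466h and miR-672. Of all miRs, 28 were detected on exactly 1 array. Other miRs of striated muscle were not detected with them. MiR-208a and miR-208b, which sit in the heart myosin genes, peaked at 0.76 and -0.023 units, miR-499 at 1.05 and miR-133a* at 2.19, and none was detected on any array.

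**Figure D2:**
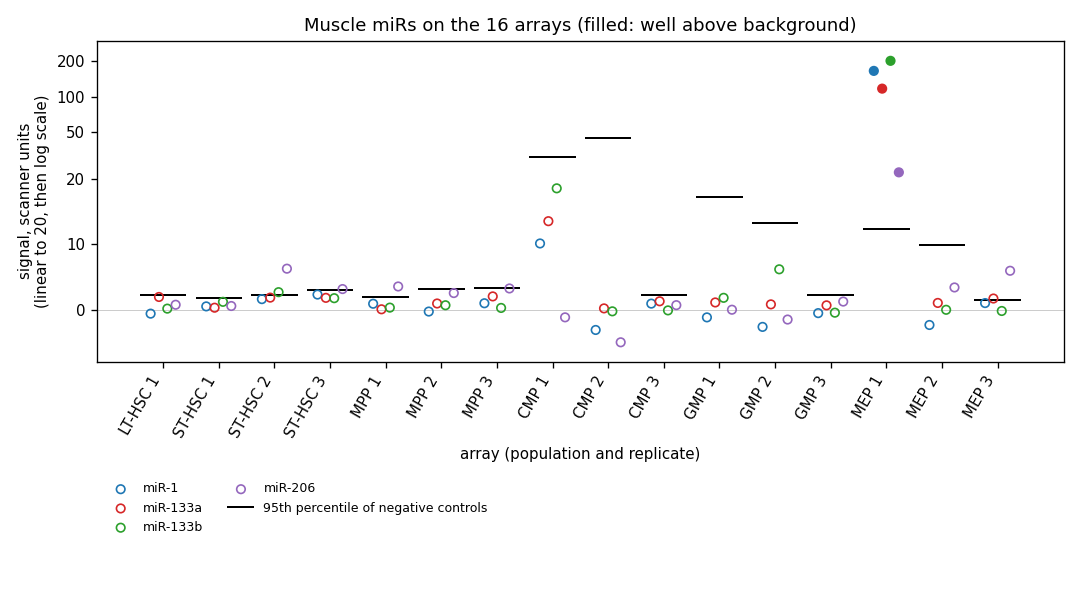
Background-subtracted signal (scanner units, linear up to 20 and on a log scale above) of the 4 muscle miRs on the 16 arrays. Filled points are detected, black bars are the 95th percentile of each array's negative controls. The 4 filled points are on MEP 1, at 22.8 to 202 units, and MEP 2 and MEP 3 read 5.95 units at most.

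None of the muscle miRs was detected on the 3 arrays needed to enter the main test. When every miR was tested (577 miRs, limma, no detection filter), MEP against the mean of the other populations gave a log2 difference of 1.31 ± 0.32 (SE) for miR-206 with an adjusted p of 0.0086, and 30.2% of all miRs were called in this comparison. MiR-133a, with its larger value on MEP 1, gave 1.42 ± 0.86 and an adjusted p of 0.285. Within MEP the normalised log2 level of miR-133b was 3.51 ± 3.28 (SD, n = 3) and that of miR-206 3.02 ± 1.03 (SD, n = 3). The part of the array MEP 1 itself in these differences was not tested, but without it no muscle miR was detected anywhere and the detected pairs fell from 9 to 5.

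MiR-124, the neuronal miR, stood out in CMP. It read 45.4 units on CMP 1 (10 of 10 spots well above background), 20.6 on CMP 2 (0 of 10 spots, limit 44.3) and 8.01 on CMP 3 (5 of 10 spots, limit 2.21). These were its 3 highest signals. The next was 5.13 units on ST-HSC 2, followed by 3.84 on ST-HSC 3, 3.82 on MEP 2, 3.42 on MPP 2 and 3.04 on MEP 3. The remaining arrays read -0.24 to 1.43. As a share of the array's summed signal, CMP ran from 0.0111% to 0.0283% and the highest of the other 13 arrays was 0.00565%. CMP thus did not overlap with the rest in units or in share. In multiples of each array's negative control limit it did overlap. CMP 3 was highest at 3.62 times its limit and CMP 2 read 0.47 times. CMP 1 lay below ST-HSC 2 (2.25 times) and MEP 3 (1.99 times). Without flagged control spots the limits of CMP 1 and CMP 2 were 12.2 and 10.8 units, under both signals. Multiples of those limits were not computed. ST-HSC 2, ST-HSC 3, MPP 2 and MEP 3 were above their limits without being detected.

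After quantile normalisation the log2 level of miR-124 was 4.40 ± 0.64 (SD, n = 3) in CMP, followed by MEP with 1.92 ± 0.28, ST-HSC with 1.87 ± 0.23 and MPP with 1.66 ± 0.08 (n = 3 each), with GMP and LT-HSC at the floor of 1.62. The comparison of CMP with the mean of the other populations was chosen after these values were seen. It gave a log2 difference of 2.66 ± 0.21 (SE) with a limma adjusted p of 7.9e-06 when all 577 miRs were tested, and 14.4% of them were called in it. A fit that blocked on slide gave 2.77 (adjusted p 0.00042), and the authors' values, which keep the background, gave 0.48 (adjusted p 0.00059). No array outside CMP detected miR-124. With those arrays raised to at least their lowest detected level, the CMP mean was 1.90-fold higher. This is not a lower bound, because that mean counts CMP 2, which was not detected. The CMP 2 value (log2 3.84) lay under the lowest detected level of its array (4.65). The reading rested on the longer probe. The shorter probe, with 1 base less, read 4.40, 0.30 and 3.48 units on CMP 1 to 3 and was detected on no array.

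Of 8 other brain miRs, only miR-219 was widely detected (15 of 16 arrays, 3.71 to 121 units), and it was not particular to CMP, since its highest value was on GMP 2. The study lists miR-219 too among its general myeloid miRs. MiR-9, a miR of neural progenitors and neurons, was detected on CMP 1 alone at 24.7 units, with 5.64 on CMP 2, 4.09 on CMP 3 and at most 2.53 (MEP 3) elsewhere. Its other strand miR-9* read 21.2 units on CMP 1 without being detected and at most 2.52 (CMP 2) elsewhere. MiR-129-5p, miR-137 and miR-153 also had their highest value on CMP 1, at 6.34, 6.16 and 2.84 units, all under its limit of 30.6, and miR-138 and miR-218 had theirs elsewhere. CMP 1 was thus the array of the highest signal for 5 of the 8, and its negative control limit was the second highest of the 16. Their part in the miR-124 difference was not tested. CMP 3, on slide 2 with a limit of 2.21, detected miR-124 and not miR-9.

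**Figure D3:**
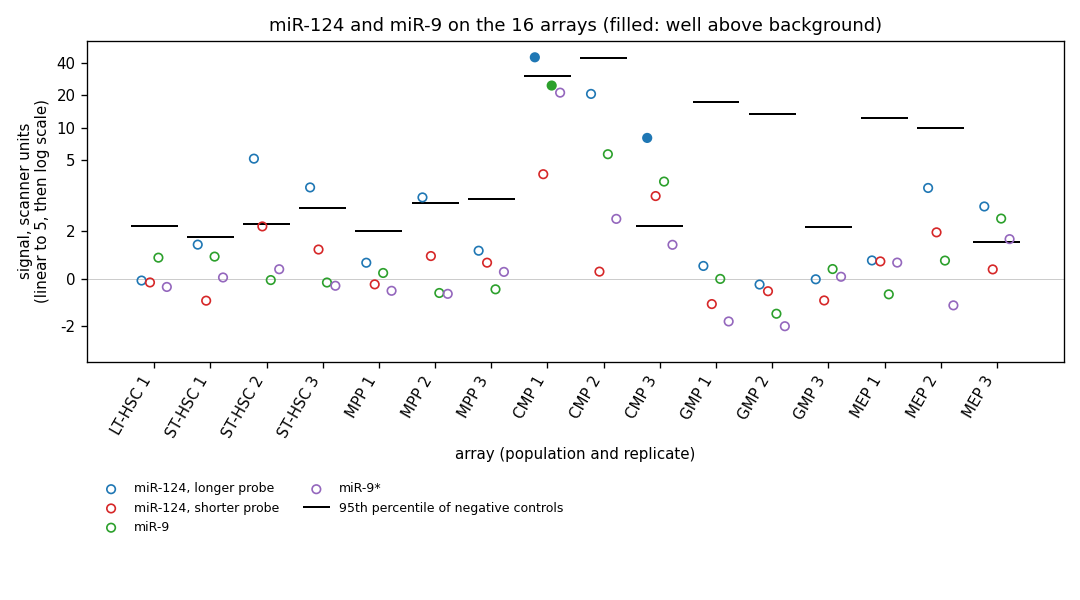
Background-subtracted signal (scanner units, linear up to 5 and on a log scale above) of both miR-124 probes, miR-9 and miR-9* on the 16 arrays. Filled points are detected, black bars are the 95th percentile of each array's negative controls. The longer miR-124 probe is filled on CMP 1 (45.4 units) and CMP 3 (8.01), and miR-9 on CMP 1 (24.7).

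MiR-200b was the member detected on most arrays, and the one that entered the main test. It read 11.1, 11.0 and 9.42 units on MPP 1, MPP 2 and MPP 3, with 8, 9 and 5 of 10 spots well above background. ST-HSC read 1.64, 5.39 and 6.95 units and LT-HSC 0.74. GMP read 8.44, 8.03 and 2.77 units, CMP 8.62, 5.89 and 1.26, and MEP -1.50, 0.19 and -0.29. The MPP arrays were the 3 highest of the 16, and the closest other array, CMP 1, was far under its limit of 30.6. ST-HSC 2, ST-HSC 3 and GMP 3 were above their limits without being detected, at 2.36, 2.34 and 1.27 times the limit. MPP 1 to 3 read 5.56, 3.48 and 2.81 times theirs. Beneath MPP the level of CMP and GMP differed by slide. They read 5.89 to 8.62 units on slide 1, with limits of 13.3 to 44.3, and at most 2.77 on slide 2. MEP was lowest on both. Without flagged control spots, GMP 1 and GMP 2 were above the limits of their arrays (7.33 and 6.10 units). CMP 1 and CMP 2 were not (12.2 and 10.8 units).

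As a share of the summed signal, MPP ran from 0.00907% to 0.0111%, again above every other array, of which ST-HSC 3 was highest at 0.00810%. Its normalised log2 level was 3.33 ± 0.15 (SD, n = 3) in MPP, 2.56 ± 0.36 in GMP, 2.21 ± 0.55 in ST-HSC and 1.85 ± 0.33 in CMP, with all MEP arrays and LT-HSC at the floor of 1.62. The neighbours GMP, ST-HSC and CMP in this order overlapped, and MPP overlapped with none.

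Across populations miR-200b differed (limma moderated F, adjusted p 0.00089), as did 82.7% of the 237 miRs tested. Against the mean of the other populations MPP was higher by 1.36 ± 0.22 (SE) on the log2 scale with an adjusted p of 0.00028, and 51.5% of the miRs tested were called in this comparison, with 32.5% of the miRs tested called as higher in MPP. MiR-200b entered this test only through the 3 MPP arrays, on which it is high, so its passing the filter and its difference are not independent. With no filter on detection (577 miRs) the difference was the same with an adjusted p of 0.00092, and 22.9% of miRs were called. With normexp background correction it was 0.12 (adjusted p 0.0063) and with the authors' values 0.23 (adjusted p 0.0010). ST-HSC, the population on the same path and in part on the same slide, was 1.12 ± 0.28 below MPP (adjusted p 0.036, with 4.64% of miRs called). MEP was 0.70 ± 0.22 below the mean of the others (adjusted p 0.014, 68.4% called), with all its values at the floor, and this call was lost within slide 1 and within slide 2. For GMP (0.44 ± 0.22, adjusted p 0.122, 48.1% called) and for HSC subsets against myeloid progenitors (0.38 ± 0.19, adjusted p 0.109, 48.1% called) the test was not passed. No fold can be given for MPP against the rest, because the lowest signals detected on the other arrays averaged above the level of miR-200b in MPP.

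All MPP arrays lay on slide 3, whose ST-HSC arrays read higher (5.39 and 6.95 units) than ST-HSC 1 on slide 2 (1.64 units). Blocking on slide brought the MPP difference to 0.82 ± 0.32 (adjusted p 0.051), and within slide 3 alone MPP was above ST-HSC by 0.86 (adjusted p 0.053), so the call was lost in both while the direction stayed. GMP, which had not passed, was called in the blocked fit (0.57, adjusted p 0.037), and its difference was -0.35 when arrays were scaled to the 75th percentile of detected probes. The ST-HSC difference was -0.86 in the blocked fit (adjusted p 0.026). It ran from -1.41 to -0.86 with an array left out, and its call was lost without any one of ST-HSC 1 or 2, MPP 1, 2 or 3, CMP 2, GMP 1 or MEP 1, 2 or 3, with adjusted p of up to 0.140. The difference between HSC subsets and myeloid progenitors was called without LT-HSC 1 or without ST-HSC 1 and ran from 0.28 to 0.76.

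No other member of the family was detected on any array. MiR-200a, the neighbour of miR-200b on chromosome 4, read 3.28, 2.79 and 3.50 units in MPP, above the limit on MPP 1 and MPP 3. It read 1.03 to 2.47 units in ST-HSC, between -0.41 and 0 in MEP, and was highest on GMP 1 at 8.59. ST-HSC 1 (2.47 units, limit 1.77) and GMP 3 (3.22 units, limit 2.19) were above the limit too. Like miR-200b it was thus higher in MPP than in ST-HSC and lowest in MEP in these units. After normalisation this did not hold for ST-HSC, since ST-HSC 1 (log2 2.25) was above MPP 1 to 3 (1.91, 1.62 and 1.87). GMP 1 to 3 read 2.71, 2.18 and 2.27, and MEP lay at the floor, as did MPP 2. Whether the patterns of miR-200a and miR-200b differ was not tested. MiR-429 was highest on CMP 1 at 5.50 units, and miR-200b*, the other strand of the miR-200b hairpin, on MEP 3 at 5.36. MiR-200c, which differs from miR-200b at 2 positions, read 2.18, 1.37 and 1.22 units in MPP, above the limit on MPP 1.

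**Figure D4:**
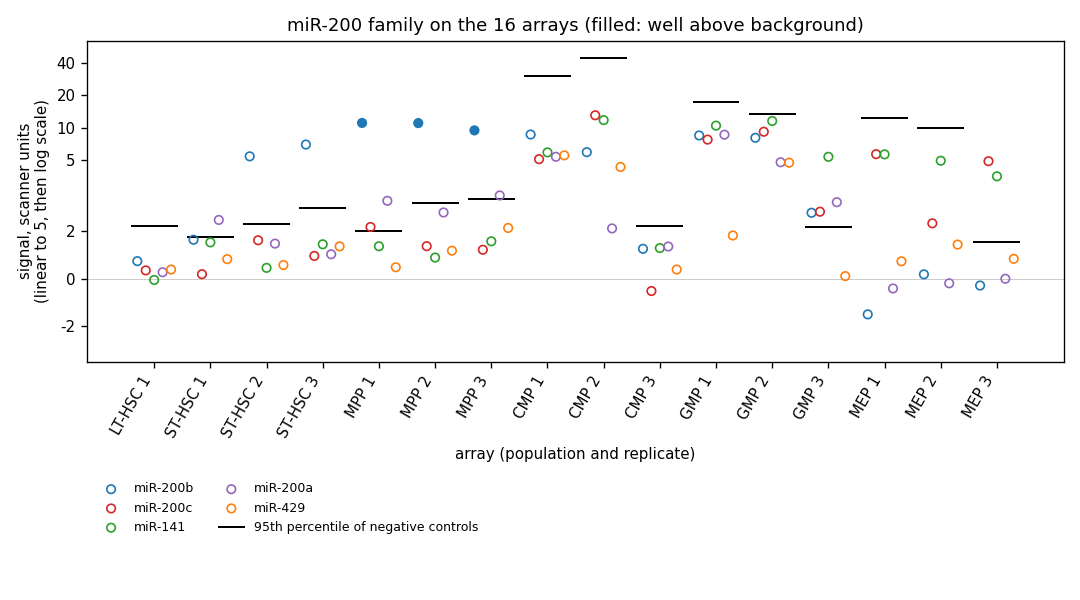
Background-subtracted signal (scanner units, linear up to 5 and on a log scale above) of miR-200b, miR-200c, miR-141, miR-200a and miR-429 on the 16 arrays. Filled points are detected, black bars are the 95th percentile of each array's negative controls. The filled points are miR-200b on MPP 1 to 3, at 9.42 to 11.1 units, and no other family member is filled.

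MiR-200c and miR-141, the chromosome 6 pair, were detected nowhere, and their highest signals were on arrays of myeloid progenitors. MiR-141 read 10.4, 11.5 and 5.33 units in GMP, 5.62, 4.96 and 4.31 in MEP and 5.87, 11.7 and 1.29 in CMP, against -0.051 to 1.57 units over the 7 arrays of HSC subsets. The slide 1 values were all below the limits of their arrays. On slide 2, GMP 3 (limit 2.19) and MEP 3 (limit 1.53) were above the limit, and CMP 3, LT-HSC 1 and ST-HSC 1 were not. MiR-200c was above the limit on these arrays too, with 2.82 units on GMP 3, 4.94 on MEP 3 and read -0.52 on CMP 3. With no detection filter, miR-141 was higher in GMP than in the mean of the others by 1.24 ± 0.20 (SE) on the log2 scale (limma adjusted p 0.0013, 18.7% of all miRs called), and by 1.19 after blocking on slide (adjusted p 0.015). It was lower in HSC subsets than in myeloid progenitors by 0.89 ± 0.17 (adjusted p 0.0032, 19.9% called), a call that was lost in the blocked fit (adjusted p 0.170). MiR-200c gave 0.74 ± 0.30 in GMP (adjusted p 0.131). As neither miR was detected on either side, these differences have no fold.

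The probes of a member did not read alike. Of the 2 probes of a member one matched the miR over 1 base more, and this longer probe was the brighter in all 9 detected pairs. Both probes were detected in 2 of the 9 pairs, miR-1 (166 and 42.1 units) and miR-133b (202 and 70.3 units) on MEP 1. For miR-200b in MPP the shorter probe read 3.86, 4.22 and 3.15 units and was detected on no array, so that every call on miR-200b rests on the longer one.

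Loosening the detection filter let more members into the test. Those that enter through 1 or 2 arrays do so by the population in which they are high (the muscle miRs by MEP 1, miR-124 by CMP), so the counts at that filter describe the members and are no support. With detection on at least 1 array as the filter, 277 miRs and 6 members were tested. Any difference between populations was then called for 3 members (miR-206, miR-124 and miR-200b, with 78.0% of all miRs called). MPP against the others was called for miR-200b, as higher, and miR-124, as lower (46.6%), MEP against the others for miR-206, as higher, and miR-200b, as lower (64.6%). MiR-124 was also called lower in GMP (41.2%) and in HSC subsets than in myeloid progenitors (44.4%), and ST-HSC against MPP gave miR-200b (4.33%). In each comparison that called miR-124 lower, the higher side held CMP (log2 4.40). MPP (1.66) and GMP (1.62) lay near LT-HSC (1.62), ST-HSC (1.87) and MEP (1.92). The part of CMP in these calls was not tested. With no filter the F test called miR-124, miR-200b and miR-141 (38.1% of 577 miRs), MPP against the others miR-200b (22.9%), and ST-HSC against MPP no member (1.91%). These fits are free of that choice, but they hold many miRs whose values all lie at the floor.

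Other miRs outside blood were mostly not detected either, and their shares were not tested against those of the members. Of 30 miRs of brain, gut, kidney, pancreas, skin, testis, ciliated cells and the early embryo, 24 were detected on no array (4 of 10 members) and 45 of their 480 pairs were detected (9.38%, against 5.62% for the members). The 11 relatives of the members on the array, such as the other strands of miR-124, miR-141 and miR-200c, gave 0 of 176 pairs. Of the 30, the 4 detected on at least 3 arrays were miR-219, miR-203 of skin (10 arrays, highest in MPP at 84.3, 102 and 103 units), and miR-192 and miR-194 of gut and kidney (9 arrays each, up to 41.0 and 36.9 units, both on GMP 2).

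Among the 237 tested miRs, let-7g (r = 0.863), let-7a (r = 0.841) and miR-362-5p (r = 0.839) had the normalised levels most like those of miR-200b by Pearson correlation over the 16 arrays. This is a description, as the arrays share populations and slides. Let-7g, a miR of the let-7 family that rises with differentiation in many tissues, read 1924 to 2243 units in MPP, 457 to 1393 in ST-HSC and 273 to 1105 in MEP, but reached 3127 on GMP 2. MiR-362-5p read 16.1 to 19.4 units in MPP, 2.76 to 4.48 in MEP and up to 22.5 on GMP 2. Let-7a read 4358 to 4944 units in MPP, and up to 4898 on CMP 2 and 4871 on GMP 2.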

How the data were processed

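The 16 samples were each hybridised to 1 one-colour Agilent miR array. The authors deposited scanner output of Agilent Feature Extraction, in which each spot has an intensity after background subtraction and yes-or-no calls, with no normalisation between arrays. They also deposited a table of log2 values after quantile normalisation with limma, which follow the median foreground intensity without background subtraction. The members and the lists of other miRs were chosen with earlier results of these data known, among them the level of miR-200b in MPP.

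Control spots and spots marked as outliers were left out (162 of 3200 member spots) and a probe's other spots averaged. The percentile of the negative controls used all 672 spots of each array. For tests, probe means were quantile normalised between arrays, set to at least 3.07 units and log2 transformed. This floor (log2 1.62) was the median of the 16 negative control limits. Values at the floor have no order. Probes detected on fewer than 3 arrays were dropped, which left 237 miRs, each read by its brightest remaining probe. Population means were fitted jointly with limma 3.58.1 in R 4.3.3 (lmFit and eBayes, 10 residual degrees of freedom), two-sided, with Benjamini-Hochberg adjustment over all miRs tested and a threshold of 0.05. For the single LT-HSC array the spread of the other populations was assumed. The fit was tested on simulated data. The named miRs were all members, the lists' miRs detected on at least 3 arrays, and the 3 miRs most like the member detected most often. Values of other listed miRs are given beside the member they touch and were chosen after they were seen.

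Alternatives covered normalisation, background correction with normexp (offset 50), floor, detection filter, probe summary, slide and replicate blocks, single slides, the authors' values and each array left out. For miR-124 in CMP only part of them was run. No replicate arrays shared a probe value. The number of arrays limits the precision.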

Additional observations from a re-analysis of the deposited data

Results flagged for a closer look

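Within the 7 arrays of HSC subsets and the 9 of myeloid progenitors, 6 of 20 tested groups of member signals had a highest array that stood apart from the rest (Dixon's ratio of the gap to the range). The usual rate by chance, about 1 in 20, holds for independent values of like spread. It does not apply here, because each group pools populations and slides with unlike limits and the muscle miRs share MEP 1. MEP 1 stood apart for miR-1 (ratio 0.922), miR-133a (0.886), miR-133b (0.906) and miR-206 (0.606), and CMP 1 for miR-124 (0.542). LT-HSC 1 stood apart for miR-122 (0.610), at 1.08 units, which is under its negative control limit of 2.21 units.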

How the results depend on the processing

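The number of detected pairs (9) was 17 with any spot as enough, 4 with all spots required, 2 with every probe required, and 5 to 9 when each array was left out (5 without MEP 1). Pairs above the negative control limit (27) became 12 with the 99th percentile, 45 when flagged negative control spots were left out (an alternative added after seeing the data), and 22 to 27 with an array left out. The MPP difference of miR-200b (1.36) was 0 with the floor at the highest negative control limit, 0.82 with slide as a block (with and without the detection filter, the latter added later) and 0.86 within slide 3, with the call lost in each, and it kept its call in the other 11 of 15 alternatives and in all 16 fits that left out an array (1.27 to 1.44).

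Members called, by comparison, moved as follows. For any difference between populations (1) the count was 0 with no normalization and with the highest floor, 3 with detection on at least 1 array or no filter, 2 with no filter and slide as a block, and 1 with any array left out. For HSC subsets against myeloid progenitors (0) it was 1 with 75th percentile scaling of detected probes, with a floor of 1 unit and with detection on at least 1 array, 2 with no filter, and 0 to 1 with an array left out (1 without LT-HSC 1 or ST-HSC 1). For MPP (1) it was 2 with detection on at least 1 array, 0 with the highest floor, 0 with slide as a block with or without the filter, 0 within slide 3, and 1 with any array left out. For GMP (0) it was 1 with a floor of 1 unit, with detection on at least 1 array and with slide as a block with or without the filter, 2 with no filter, and 0 with any array left out. For MEP (1) it was 0 with no normalization, with the highest floor and within slides 1 (added later) and 2, 2 with the looser filters, and 1 with any array left out. For ST-HSC against MPP (1) it was 0 with 75th percentile scaling of detected probes, no normalization, normexp, the highest floor, no filter with or without the slide block, the replicate block, the authors' values and within slide 3, and 0 to 1 with an array left out, kept without LT-HSC 1, ST-HSC 3, CMP 1, CMP 3, GMP 2 or GMP 3.

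The GMP difference of miR-200b reversed to -0.35 with 75th percentile scaling of detected probes, and its difference between HSC subsets and myeloid progenitors to -0.14 within slide 2. With detection on at least 6 arrays no member was left to test. The CMP difference of miR-124 kept its call in the fewer alternatives run for it, at 2.31 to 2.94 with an array left out (LT-HSC 1 always kept). It was 0.48 with the authors' values, 2.05 with 75th percentile scaling of detected probes, 2.57 with no normalization and 3.59 with a floor of 1 unit. The highest floor, normexp, single slides, scaling on all probes, probe means and the intensity trend were not run for miR-124. MiR-200b in MPP lost its call at the highest floor and within a single slide, so the calls of both miRs cannot be ranked. The cause of these changes was not tested.

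The replicate block left the MPP difference of miR-200b at 1.37 (adjusted p 0.00081) and took the ST-HSC comparison to an adjusted p of 0.060. The shared replicate numbers mark no known pairing, and deviations of same-numbered arrays correlated between -0.37 and 0.63, over 0.1 in 12 of 30 pairs. Among CMP, GMP and MEP all 9 such pairs were over 0.1 (0.23 to 0.63), and all 9 share a slide. The counts of members called in the other comparisons were the same under the replicate block.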
